A study of Mus musculus with 8 samples.

Results

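The genes described here are 34 genes associated with autism whose products, by the name of the group, regulate transcription and chromatin. They were chosen by symbol from the 32285 genes of the deposited gene list, and all 34 were found. By role, 4 encode sequence-specific transcription factors, 7 histone methyltransferases, 2 histone demethylases and 13 cofactors of transcription or chromatin, and 3 encode ubiquitin ligase parts or a kinase (Cul3, Trip12 and Dyrk1a). The name does not describe the other 5 members: Ank2 encodes a membrane scaffold, Tsc1 and Tsc2 form the complex that restrains mTOR signalling, Nf1 encodes a regulator of Ras, and Dscam encodes a cell adhesion receptor. They are kept under the rule and given apart at the end of the cell type results.

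RNA was counted in single nuclei of the cortex of 8 C57BL/6J mice at postnatal day 25, after the medial cortex had been taken out. Each mouse gave 1 library: 4 mice were wild type (WT) and 4 heterozygous for Chd8 (Chd8het, Chd8+/-), and each genotype had 2 males and 2 females. By the labels the mice came as 4 pairs of the same litter and sex, with no treatment named. In each sex and genotype, replicate 1 carried a single index and replicate 2 a dual index. The labels do not describe how the Chd8 allele was made. The design asks which cell types of the juvenile cortex hold these genes, how they vary with Chd8 over cell types, and whether they differ between the genotypes.

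Chd8 encodes a chromatin remodeller of the CHD family that uses ATP to move nucleosomes, and loss of 1 copy of the human gene is among the known genetic causes of autism. Histone methyltransferases and demethylases write and remove methyl marks on histone tails, cofactors read such marks or bridge transcription factors to the polymerase, and sequence-specific factors bind DNA motifs. Many autism-associated genes act in the dosage-sensitive control of transcription in developing neurons, and most are active in many tissues.

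Nuclei were assigned to cell types by scores of marker genes, none of which is a member. A name therefore means resemblance to that marker list ("L6 CT" stands for L6 CT-like, and so on). There were 15 types with enough nuclei in every library. The 9 neuronal types were the intratelencephalic (IT) neurons L2/3 IT, L4/5 IT and L5/6 IT, the extratelencephalic L5 ET, the near-projecting L5/6 NP, the corticothalamic L6 CT, and the Pvalb, Sst and Lamp5 interneurons. The 6 non-neuronal types were astrocytes, oligodendrocyte precursors (OPC), committed oligodendrocyte precursors (COP), oligodendrocytes, microglia and fibroblasts. Together they held 50113 of 77890 kept nuclei (64.3%), and a stricter margin between the best and the second score would drop 10443 of them (20.8%). That loss was uneven: L5/6 NP would go from 1235 to 616 nuclei and Lamp5 from 423 to 213, but oligodendrocytes from 3728 to 3442. Libraries held 69.5 to 98.1 M UMIs (unique molecular identifiers, counted in units of M, the prefix mega), and pairs of libraries shared 19 to 36 barcodes. The median score of a type's own list was high, but OPC nuclei also had a median of 0.648 for the list of MGE-derived interneurons, which holds genes such as Sox6 that OPC express too. L5/6 NP nuclei had a median of 0.426 for the L6 CT list, beside 0.808 for their own. In the non-neuronal types, 8 general neuronal genes outside the marker lists stood at a median of 12.4% (oligodendrocyte) to 26.0% (microglia) of their level in excitatory neurons. The spread over these genes was wide, with the highest gene at 82.4% in COP and at 188% in microglia.

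Chd8 itself overlapped between the genotypes. Libraries are listed throughout as male 1, male 2, female 1 and female 2. Over all nuclei Chd8 was at 76.1, 82.6, 79.9 and 80.4 counts per M UMIs (CPM) in WT, and at 76.4, 87.4, 76.9 and 76.7 CPM in Chd8het. Whether the altered allele removes the counted 3' end of the transcript is not given in the sources used here, so these counts need not check the genotype. Over cell types Chd8 varied little, from 63.8 ± 10.7 CPM in fibroblasts to 105 ± 11.6 CPM in L5 ET neurons (mean ± SD, n = 8 libraries). The libraries of these 2 types did not overlap. Levels by type, here and in the cell type results, were scaled by TMM (trimmed mean of M values) unless plain library totals are named. The span of Chd8 with plain library totals is not given.

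Over cell types, most members were spread broadly. Only 10 of the 34 members were at least 2-fold higher in some type than in the mean of the other types (29.4%, against 59.6% of 15199 genes tested). They passed in 27 of 510 tests of a member in a type (5.29%), where 10.4% of all such tests passed. With plain library totals, 24 tests in 12 members passed, so the calls given by member below hold for TMM scaling. In the other direction, 30 member tests in 9 members were at least 2-fold lower, beside 9.88% of all tests. A call meant at least 2-fold and an adjusted p under 0.05 in edgeR's quasi-likelihood test with Benjamini-Hochberg (BH) adjustment over all genes, with the library as a block. In 22 members no type passed in either direction. Among all genes, the share called higher was 9.67% in L2/3 IT, 8.31% in L4/5 IT, 8.82% in L5/6 IT, 9.71% in L5 ET, 6.77% in L5/6 NP, 7.33% in L6 CT, 8.86% in Pvalb, 7.53% in Sst and 7.28% in Lamp5. It was 15.0% in astrocytes, 11.7% in OPC, 10.1% in COP, 13.4% in oligodendrocytes, 16.8% in microglia and 14.9% in fibroblasts. Of the 34 members, 4 were called in L5/6 NP, 3 each in L5/6 IT, L5 ET and L6 CT, 2 each in L2/3 IT, L4/5 IT, Sst, OPC and COP, 1 each in Lamp5, astrocytes, oligodendrocytes and fibroblasts, and 0 in Pvalb and microglia. At an unadjusted p under 0.05 in edgeR, 9 members were on the higher side in Pvalb (all genes 30.8%) and 16 on the lower (33.0%), and in microglia 15 were on the higher side (35.5%) and 14 on the lower (33.2%). Among 53 other autism-associated regulators listed for comparison, 20 genes (37.7%) were called higher in a type. The index tau, which is 0 for a gene at the same level in every type and 1 for a gene in 1 type only, had a median of 0.335 over the members, 0.537 over all genes and 0.481 over the 7987 genes within the members' range of levels. By TMM-scaled levels, 11 members varied less than 2-fold between their highest and lowest type, and 23 less than 3-fold. The same shares over all genes are not given, nor is that of genes with no call in either direction.

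**Figure D1:**
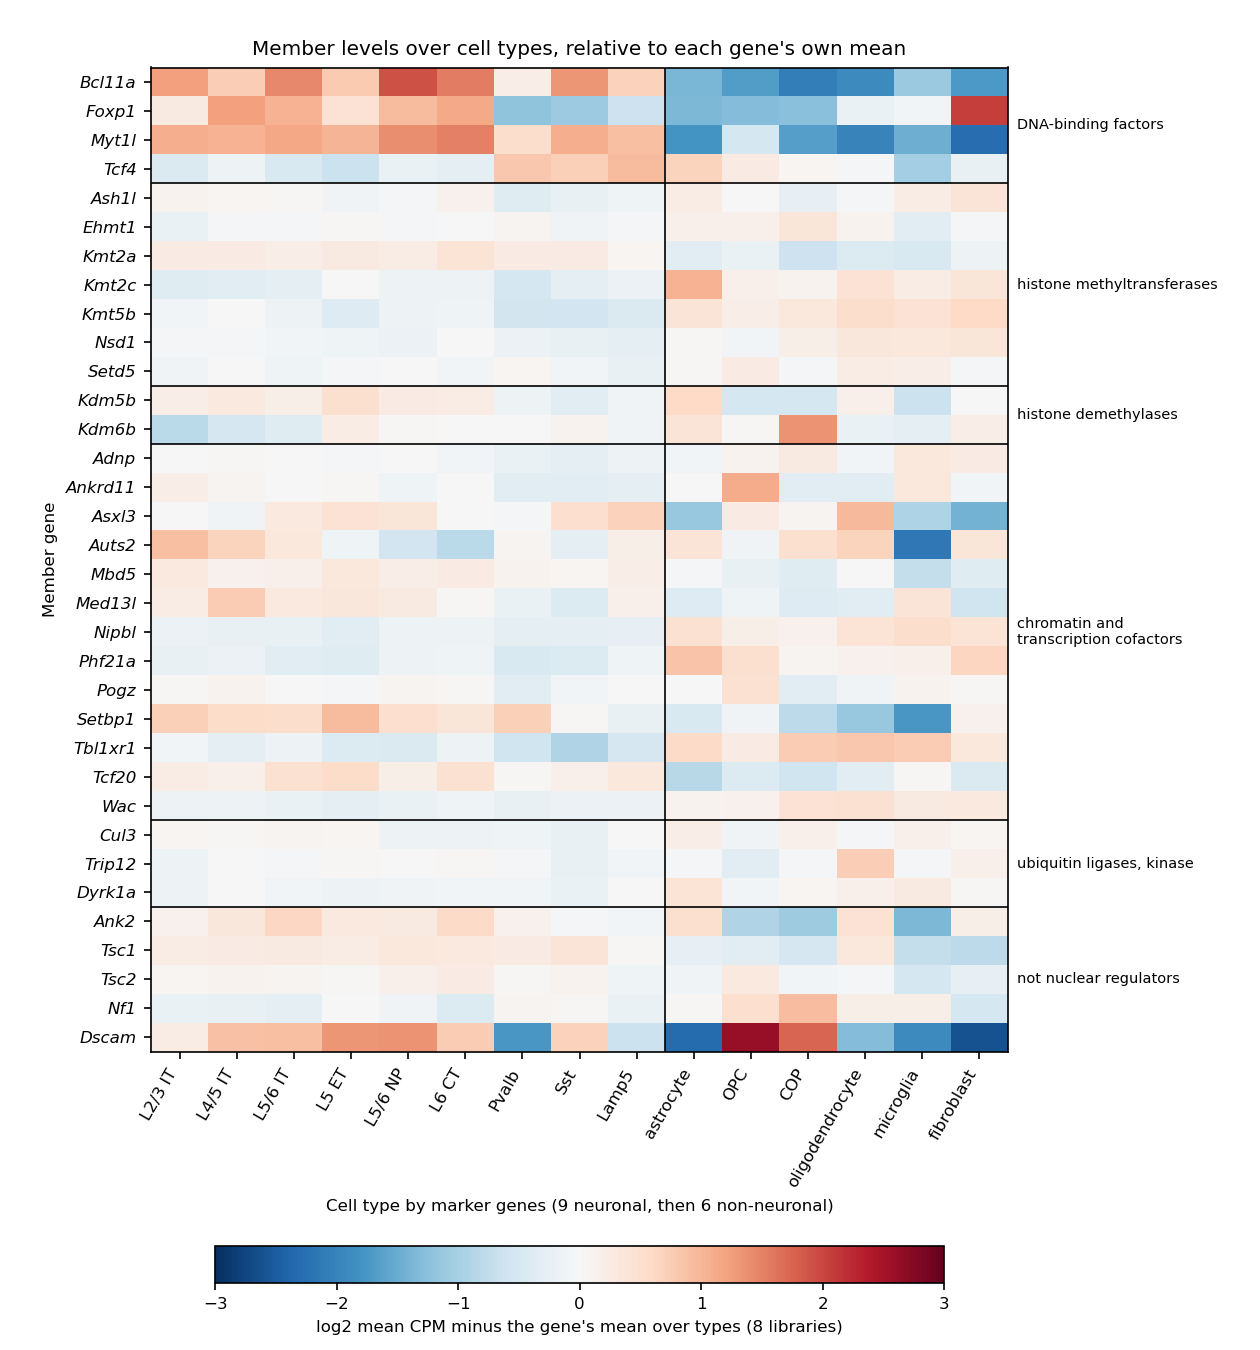
Level of the 34 members (rows, grouped by role) in the 15 cell types (columns), as log2 of the mean CPM over 8 libraries minus the gene's mean over types, coloured from -3 to 3. Most rows are pale, and strong colour is found mainly in the rows of Bcl11a, Myt1l, Foxp1 and Dscam, with microglia low for Auts2 and Setbp1.

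Among the 4 sequence-specific factors, all were called higher in at least 1 type. Bcl11a, a zinc finger repressor needed for the identity of deep-layer projection neurons (chr11:24078056-24174123, GRCm38, plus strand), was highest in L5/6 NP neurons. There its lowest, median and highest library stood at 540, 635 and 696 CPM, beside 444, 481 and 525 CPM in L6 CT, 170, 194 and 213 CPM in Pvalb and 18.7, 33.0 and 77.8 CPM in COP. L5/6 NP libraries did not overlap those of L6 CT, and every one of these neuronal libraries stood above all COP libraries. Against the mean of the other types the log2 difference was 2.06 in L5/6 NP (SE 0.06, adjusted p = 2.47e-57, edgeR with BH), 1.64 in L6 CT, 1.54 in L5/6 IT, 1.42 in Sst and 1.32 in L2/3 IT. All 6 non-neuronal types were called lower, from -1.21 in microglia to -2.18 in COP, and held 9.4% (COP) to 18.4% (microglia) of the excitatory level. The 8 general neuronal genes, on plain totals, stood at medians of 12.4% (oligodendrocyte) to 26.0% (microglia) in these types. Whether such shares come from these cells themselves was not tested.

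Myt1l, a zinc finger factor that holds neuronal identity by repressing other programmes (chr12:29528384-29923213, plus strand), was called higher in 7 of the 9 neuronal types. In L6 CT, its highest type, it stood at 812, 1124 and 1742 CPM (lowest, median and highest library), and in L5/6 NP at 892, 1031 and 1379 CPM. OPC libraries were at 184, 282 and 393 CPM and fibroblast libraries at 65.0, 77.4 and 110 CPM. The 2 leading types overlapped, while OPC stood above fibroblasts in every library and below both neuronal types. The log2 difference from the mean of the other types was 1.60 in L6 CT (SE 0.06, adjusted p = 8.06e-48, edgeR with BH), 1.51 in L5/6 NP and between 1.09 and 1.25 in Sst, L5/6 IT, L2/3 IT, L4/5 IT and L5 ET. It was called lower in fibroblasts (-2.43), oligodendrocytes (-2.19), astrocytes (-1.95), COP (-1.76) and microglia (-1.58), but not in OPC, which held 30% of the excitatory level where the other non-neuronal types held 8.9% to 15.7%. The limit given for the shares of Bcl11a holds for these too. Within L6 CT the 4 dual-indexed libraries were above the 4 single-indexed ones.

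Foxp1, a forkhead repressor with known roles in cortical and striatal neurons (chr6:98925338-99522721, minus strand), was highest, among the 15 tested types, outside the neurons. Fibroblasts stood at 1297, 1672 and 1878 CPM, L4/5 IT neurons at 862, 917 and 992 CPM and L6 CT neurons at 815, 868 and 937 CPM. L2/3 IT neurons stood at 406, 466 and 557 CPM, and Pvalb interneurons at 135, 172 and 197 CPM. Every fibroblast library was above every library of the other types named here, and L4/5 IT and L6 CT were above L2/3 IT without overlap. The log2 difference was 2.23 in fibroblasts (SE 0.05, adjusted p = 1.27e-74, edgeR with BH), and L4/5 IT (1.32), L6 CT (1.22), L5/6 IT (1.13) and L5/6 NP (1.01) were called too. Astrocytes (-1.45), OPC (-1.38), COP (-1.35), Pvalb (-1.31) and Sst (-1.17) were called lower.

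Tcf4, a basic helix-loop-helix factor that pairs with proneural factors (chr18:69343356-69689079, plus strand), led in the interneurons. It stood at 2150, 2405 and 2699 CPM in Lamp5, at 2107, 2172 and 2326 CPM in Pvalb and at 1856, 2049 and 2197 CPM in Sst. Astrocytes were near these at 1795, 1994 and 2163 CPM, L5 ET neurons stood at 727, 783 and 898 CPM and microglia at 563, 618 and 686 CPM. The 3 interneuron types and astrocytes overlapped in part, and all were above L5 ET and microglia. The Lamp5 difference lay at the 2-fold limit (log2 1.02, SE 0.04, adjusted p = 1.46e-45, edgeR with BH) and dropped just under it in 7 of 12 alternatives, to 0.97 to 1.00. In microglia Tcf4 was called lower (-1.08).

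**Figure D2:**
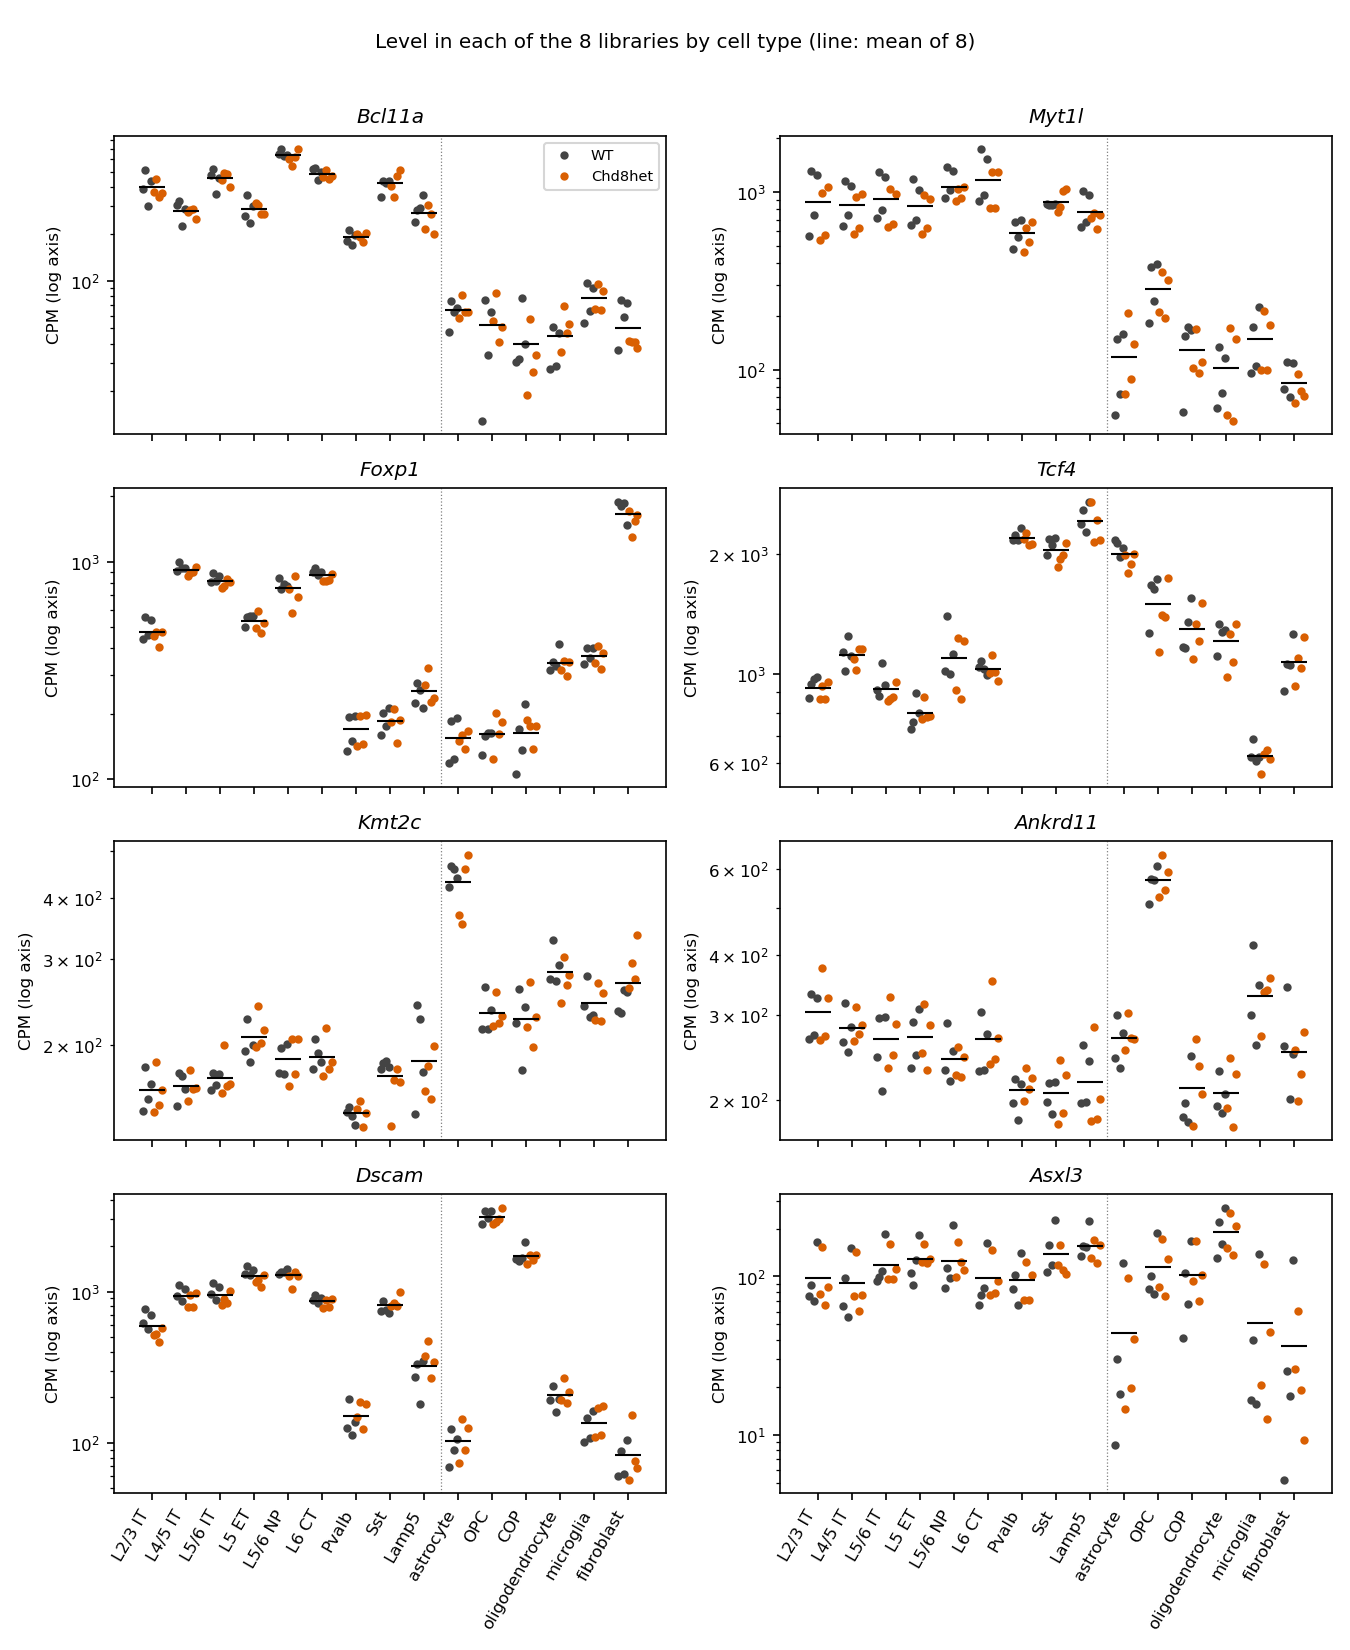
Level in CPM (log axis) of Bcl11a, Myt1l, Foxp1, Tcf4, Kmt2c, Ankrd11, Dscam and Asxl3 in each of the 15 cell types, with 1 point per library and a bar at the mean of 8 libraries. Bcl11a and Myt1l are high in projection neurons, Foxp1 peaks in fibroblasts at 1651 CPM and Dscam in OPC at 3115 CPM, while 2 libraries stand above the other 6 for Asxl3 in all types.

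The 7 histone methyltransferases were mostly broad. Kmt2c, which places methyl marks on lysine 4 of histone H3 at enhancers (chr5:25271798-25498783, minus strand), was the only one called higher in a type. Astrocyte libraries stood at 354, 449 and 490 CPM, oligodendrocytes at 245, 276 and 329 CPM and Pvalb interneurons at 136, 146 and 154 CPM. Astrocytes were above oligodendrocytes in all libraries and Pvalb was below both. The astrocyte difference was 1.12 on the log2 scale (SE 0.04, adjusted p = 1.29e-55, edgeR with BH). Kmt2a, a related enzyme that acts at promoters, led in L6 CT neurons at 158, 197 and 336 CPM and was lowest in COP at 58.3, 105 and 150 CPM, and its difference from the mean of the other types was not called. Ash1l, Nsd1 and Kmt5b, which methylate H3 lysine 36 or H4 lysine 20, were highest in non-neuronal types. Ash1l stood at 242, 310 and 364 CPM in fibroblasts and Nsd1 at 257, 333 and 400 CPM there, beside 301, 338 and 357 CPM in oligodendrocytes, which overlapped. Kmt5b stood at 81.3, 114 and 162 CPM in fibroblasts and 37.8, 48.3 and 70.6 CPM in Sst interneurons. Ehmt1, an H3 lysine 9 methyltransferase, ranged from 107, 114 and 137 CPM in microglia to 140, 192 and 225 CPM in COP. Setd5, a SET domain protein, ranged from 131, 165 and 201 CPM in Lamp5 to 203, 233 and 268 CPM in OPC. None of these 5 genes passed the call of 2-fold in any type.

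Of the 2 demethylases, Kdm6b, which removes methyl groups from H3 lysine 27 (chr11:69398508-69413675, minus strand), was called higher in COP. COP libraries stood at 30.6, 42.7 and 82.5 CPM, which rests on 11 to 18 UMIs per library. Astrocytes were at 16.8, 24.3 and 31.5 CPM, and L2/3 IT neurons at 2.25, 6.92 and 30.6 CPM. The COP and astrocyte ranges touched at their edges, and L2/3 IT was lowest with a wide spread. The COP difference was 1.37 on the log2 scale (SE 0.26, adjusted p = 3.32e-06, edgeR with BH). Kdm6b overlaps the opposite-strand transcript Kdm6bos, and reads of the 2 cannot be told apart unless the counting used strand, which is not given in the sources used here. Kdm5b, which acts on H3 lysine 4, ranged from 32.8, 42.6 and 67.8 CPM in microglia to 89.8, 105 and 131 CPM in astrocytes and was not called.

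Among the 13 cofactors, 3 were called higher in a type. Ankrd11, an ankyrin repeat protein that recruits histone deacetylases (chr8:122883822-123042277, minus strand), was highest in OPC. OPC libraries stood at 510, 572 and 642 CPM, microglia at 261, 336 and 418 CPM and COP at 177, 202 and 267 CPM. OPC did not overlap microglia, nor COP, the next stage of the oligodendrocyte lineage. The OPC difference was 1.20 on the log2 scale (SE 0.04, adjusted p = 3.12e-57, edgeR with BH). Setbp1, a SET-binding protein (chr18:78750380-79109391, minus strand), was highest in L5 ET at 727, 857 and 1125 CPM, beside 628, 738 and 928 CPM in Pvalb and 85.3, 141 and 177 CPM in microglia. L5 ET and Pvalb overlapped, and microglia lay apart. The L5 ET difference was 1.01 (SE 0.05, adjusted p = 4.59e-40, edgeR with BH) and passed narrowly: with plain library totals it was 0.81, and without Chd8het male 1 it was 0.99. Setbp1 was called lower in microglia (-1.90) and oligodendrocytes (-1.24).

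Asxl3, a polycomb-related cofactor that acts with a histone H2A deubiquitinase (chr18:22344883-22530227, plus strand), was highest in oligodendrocytes at 131, 184 and 270 CPM and in Lamp5 interneurons at 122, 155 and 225 CPM. It stood at 8.63, 24.9 and 121 CPM in astrocytes, 12.7, 30.3 and 138 CPM in microglia and 5.22, 22.2 and 127 CPM in fibroblasts. In those 3 types the highest library lay far above the median. The oligodendrocyte difference was 1.07 on the log2 scale (SE 0.09, adjusted p = 2.80e-20, edgeR with BH), and fibroblasts (-1.50), astrocytes (-1.23) and microglia (-1.06) were called lower. With plain library totals the oligodendrocyte difference was 0.999, just under the 2-fold call. WT female 2 and Chd8het male 2, both dual-indexed, were above all other 6 libraries in 15 of 15 types. Their mean exceeded that of the other 6 by 49.8 CPM in Pvalb to 104 CPM in microglia, which is 1.38-fold in Lamp5 and 5.49-fold in fibroblasts. Without these libraries the oligodendrocyte difference was 1.30, Lamp5 was called as well (1.04), and the low types were lower (-2.23 in fibroblasts, -1.89 in astrocytes and -1.71 in microglia). What sets the 2 libraries apart was not tested.

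The other 10 cofactors were not called higher in any type. Auts2, which converts a polycomb complex into an activator, was highest in L2/3 IT neurons at 2637, 2832 and 3277 CPM and in oligodendrocytes at 2174, 2363 and 3222 CPM. It was lowest in microglia at 238, 333 and 505 CPM, where it was called lower (-2.31). The microglial libraries lay below all L2/3 IT and oligodendrocyte libraries. Tcf20 and Mbd5 were highest in L5 ET neurons, Tcf20 at 210, 259 and 347 CPM and Mbd5 at 502, 543 and 564 CPM. Med13l, a part of the Mediator kinase module, was highest in L4/5 IT at 203, 232 and 264 CPM and lowest in fibroblasts at 57.3, 88.5 and 119 CPM. Phf21a, a reader in the LSD1 complex, was highest in astrocytes (390, 412 and 488 CPM) and lowest in Pvalb (153, 169 and 192 CPM). Those Phf21a ranges did not overlap. Nipbl, the cohesin loader, and Adnp, a homeodomain protein of a chromatin complex with CHD4, had their highest means in microglia. Nipbl stood there at 225, 299 and 340 CPM, against 136, 161 and 176 CPM in L5 ET, and Adnp at 60.6, 83.7 and 91.6 CPM, against 36.6, 57.4 and 63.4 CPM in Sst. Neither was set apart from the next type (edgeR adjusted p = 0.39 for Nipbl over astrocytes and 0.74 for Adnp over COP). Adnp was higher in microglia than in COP in only 2 of 8 libraries. Tbl1xr1, a part of the NCoR corepressor complex, and Wac, an adaptor for histone H2B ubiquitination, were highest in oligodendrocytes. Tbl1xr1 stood at 150, 198 and 208 CPM there and 47.6, 51.5 and 80.9 CPM in Sst, and Wac at 145, 153 and 179 CPM there and 85.6, 92.7 and 104 CPM in L5 ET. In both genes the oligodendrocyte libraries were above those of the lowest type, but these libraries also picked the highest and lowest types. Neither was set apart from the next type, with oligodendrocytes higher in 5 of 8 libraries for each. The edgeR adjusted p was 0.64 for Tbl1xr1 over microglia and 0.73 for Wac over COP. Pogz, a heterochromatin-binding protein, ranged from 35.7, 46.0 and 48.6 CPM in Pvalb to 64.0, 77.4 and 86.8 CPM in OPC.

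The ubiquitin ligase parts and the kinase were not called in any type. Cul3, the scaffold of a family of ubiquitin ligases, had the lowest tau of all members (0.140) and a span of 1.35-fold between its highest and lowest type. It stood at 95.5, 102 and 118 CPM in astrocytes and at 48.2, 82.1 and 90.4 CPM in Sst. Dyrk1a, a dual-specificity kinase, ranged from 76.1, 89.5 and 151 CPM in Sst to 133, 157 and 189 CPM in astrocytes. Trip12, a HECT ubiquitin ligase, was highest in oligodendrocytes at 268, 312 and 389 CPM and lowest in OPC at 116, 157 and 174 CPM. Those Trip12 ranges did not overlap, although both types belong to the oligodendrocyte lineage.

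Among the 5 members that are not regulators of transcription or chromatin, Dscam (chr16:96590840-97170752, minus strand) had the largest range of all 34. It stood at 2803, 3038 and 3565 CPM in OPC, at 1518, 1655 and 2115 CPM in COP and at 159, 194 and 267 CPM in oligodendrocytes. The libraries of the 3 types did not overlap. Among neurons it was at 1041, 1328 and 1418 CPM in L5/6 NP and 1070, 1292 and 1487 CPM in L5 ET, but at 113, 143 and 194 CPM in Pvalb. Fibroblasts held the least, at 57.2, 72.3 and 152 CPM, and the fold from OPC to the lowest type was 37.2. The OPC difference was 2.81 on the log2 scale (SE 0.05, adjusted p = 1.04e-84, edgeR with BH), and COP (1.88), L5/6 NP (1.46) and L5 ET (1.43) were called as well. Fibroblasts (-2.81), astrocytes (-2.48), microglia (-2.05), Pvalb (-1.88) and oligodendrocytes (-1.40) were called lower.

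The other members of this group were not called higher in any type. Nf1 was highest in COP at 425, 518 and 657 CPM and in OPC at 364, 407 and 418 CPM, and lowest in fibroblasts at 148, 194 and 246 CPM. Its COP difference of 0.99 on the log2 scale fell just short of 2-fold. Ank2 was highest in L5/6 IT neurons at 2391, 2526 and 2829 CPM, lowest in microglia at 521, 665 and 789 CPM, and was called lower in microglia (-1.46) and COP (-1.14). Tsc1 and Tsc2, whose products work as 1 complex, each had a highest type that was not set apart from the next. Tsc1 was highest in Sst at 102, 113 and 130 CPM, and Tsc2 in OPC at 17.6, 19.2 and 22.4 CPM. The log2 gap was 0.06 for Tsc1 over oligodendrocytes (edgeR adjusted p = 0.45) and 0.04 for Tsc2 over L6 CT (edgeR adjusted p = 0.81). Both were lowest in a non-neuronal type, Tsc1 in fibroblasts with a median of 52.9 CPM and a highest library of 62.4 CPM, and Tsc2 in microglia at 3.64, 11.1 and 18.3 CPM.

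By highest type, 23 members led in a non-neuronal type and 11 in a neuronal type. The share of all genes led by a non-neuronal type is not given, so these counts are not read as a trait of the members. Among all genes, calls of at least 2-fold higher were more frequent in each non-neuronal type (10.1% to 16.8%) than in any neuronal type (6.77% to 9.71%). The non-neuronal leaders were OPC and astrocytes with 5 members each, fibroblasts and oligodendrocytes with 4 each, COP with 3 and microglia with 2. Many of these places were not set apart from the next. Each type was compared with the next in the order within the 8 libraries, and none of the 476 neighbouring pairs passed the exact sign-flip permutation test after BH over the pairs (smallest adjusted p 0.0744). With 8 libraries the smallest p this two-sided test can give is 0.0078, and 75 pairs would have to reach it for any to pass, where 50 did. Unadjusted, 107 pairs were under 0.05. The edgeR contrast of the same types, added after seeing the data, called 70 of the 476. Over all genes and all pairs of types 52.5% of tests were called, but neighbours in an order are the closest pairs by construction, so the shares are not comparable. For the highest type against the second, 10 members were higher in 8 of 8 libraries: Dscam, Kdm6b, Foxp1, Ankrd11, Kmt2c, Trip12, Nf1, Bcl11a, Pogz and Setbp1. The edgeR contrast called these 10 and also Ehmt1, Auts2, Med13l and Phf21a. The share of all genes whose highest type is set apart is not given, so neither count is read as a trait of the members. The largest such gaps on the log2 scale were 0.87 for Kdm6b (COP over astrocytes), 0.86 for Dscam (OPC over COP), 0.85 for Foxp1 (fibroblasts over L4/5 IT) and 0.81 for Ankrd11 (OPC over microglia). The top places of Myt1l (0.08), Tcf4 (0.14, edgeR adjusted p = 0.064) and Asxl3 (0.31, edgeR adjusted p = 0.086) were not set apart. The same libraries ranked the types and tested them, and the separations above hold for TMM scaling. On plain library totals the edgeR contrast called 10 members, each tested for its highest type on that scaling. Kdm6b (edgeR adjusted p = 0.126), Trip12 (0.520), Pogz (0.586), Setbp1 (0.306), Ehmt1 (0.182) and Auts2 (0.357) were then not set apart. Tcf4 (edgeR adjusted p = 0.0045) and Ash1l (0.0070) were. With plain library totals the highest type was the same in 22 of 34 members. It changed to fibroblasts for Kmt2a, Auts2, Phf21a, Wac and Ank2, to microglia for Setd5, Med13l, Tbl1xr1, Tcf20, Cul3 and Dyrk1a, and to Lamp5 for Mbd5, so the places given above for these 12 members hold for the TMM scaling (trimmed mean of M values) only.

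In the contrast of the 9 neuronal with the 6 non-neuronal types, 16 members were higher in neurons (all genes 37.0%) and 17 lower (all genes 42.3%), with Pogz in neither direction (-0.06). The median over members was -0.09 on the log2 scale and over all genes -0.08. Those at least 2-fold higher in neurons were Bcl11a (2.74), Myt1l (2.72), Setbp1 (1.15) and Dscam (1.05). By this scaling none was 2-fold lower, and the lowest were Tbl1xr1 (-0.97), Kmt5b (-0.68), Kmt2c (-0.64), Phf21a (-0.64) and Nipbl (-0.59). With plain library totals in place of TMM, the median of all genes moved by -0.28, and 12 members were higher (all genes 25.6%) and 20 lower (all genes 56.4%). With plain totals Setbp1 (0.87) and Dscam (0.76) were under 2-fold and Tbl1xr1 (-1.25) was past it, while Bcl11a (2.46) and Myt1l (2.44) stayed above. Kdm5b, Auts2, Tsc2 and Tcf4 changed sign with that choice, so no direction between neurons and other cells is given for them. With plain totals 28 members led in a non-neuronal type, and the share of all genes that did so is not given.

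In 5 further types too small to test (L6b, Vip, striatal projection neuron, endothelial and mural), counts were summed over libraries and compared on plain totals. In 7 of 170 pairs of a member and a type, the summed level with its exact Poisson interval of 95% lay above the highest tested type. Myt1l stood at 1220 CPM in L6b (1183 to 1258), against 1050 CPM in L6 CT. Foxp1 stood at 2325 CPM (2263 to 2388) in striatal projection neurons, where it is a known marker, against 2218 CPM in fibroblasts. Tcf4 stood at 2861 CPM (2784 to 2940) in Vip interneurons, against 2423 CPM in Lamp5. The other pairs were Tcf20 in L6b, and Myt1l, Tcf20 and Auts2 in striatal projection neurons, of which a library held between 2 and 113. Intervals cover counting error only.

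Co-variation with Chd8 over the 15 types was described by Spearman's correlation coefficient on mean log2 CPM. These points share libraries, depth and the neuronal or non-neuronal make-up of the types, and Chd8 itself spans only 1.65-fold, so no p is given. The median coefficient over members was -0.12 and over all genes 0.04. The members' median turned to 0.011 with plain totals, 0.0083 over neuronal types alone, 0.086 over non-neuronal types alone and 0.10 with the stricter gate, so its sign depends on these choices. The coefficient was above 0.5 in 7 members (all genes 21.8%) and below -0.5 in 8 (all genes 18.2%). The members nearest to Chd8 were Kmt2a (0.81), Bcl11a (0.81) and Myt1l (0.79), each highest in a type of projection neuron (for Kmt2a with TMM only). The members farthest from it were Wac (-0.88), Phf21a (-0.85) and Kmt5b (-0.82), each highest in a non-neuronal type. Over the 9 neuronal types alone these values were 0.53, 0.32 and 0.15 for the first 3, and -0.70, -0.50 and -0.43 for the others. Over the 6 non-neuronal types they were -0.37, 0.31 and 0.49, and -0.03, -0.26 and -0.09. Counted in these sets, 4 members were above 0.5 over the neuronal types (all genes 9.23%) and 5 over the non-neuronal types (all genes 25.9%).

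Much of this pattern rested on the scaling. With plain library totals the coefficient of Wac was -0.02, of Phf21a -0.18 and of Kmt5b -0.23, and those of Kmt2a, Bcl11a and Myt1l were 0.60, 0.38 and 0.35. With plain totals only Tcf20 (0.72) and Kmt2a were above 0.5 (all genes 6.25%), and Auts2 (-0.69) was the only member below -0.5 (all genes 2.2%). Computed in each library alone, the coefficient of Wac ran from -0.85 to -0.15 and that of Kmt2a from 0.07 to 0.74, so the sign was the same in all 8 libraries for both. The median over members ran from -0.16 to 0.16 between libraries.

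**Figure D3:**
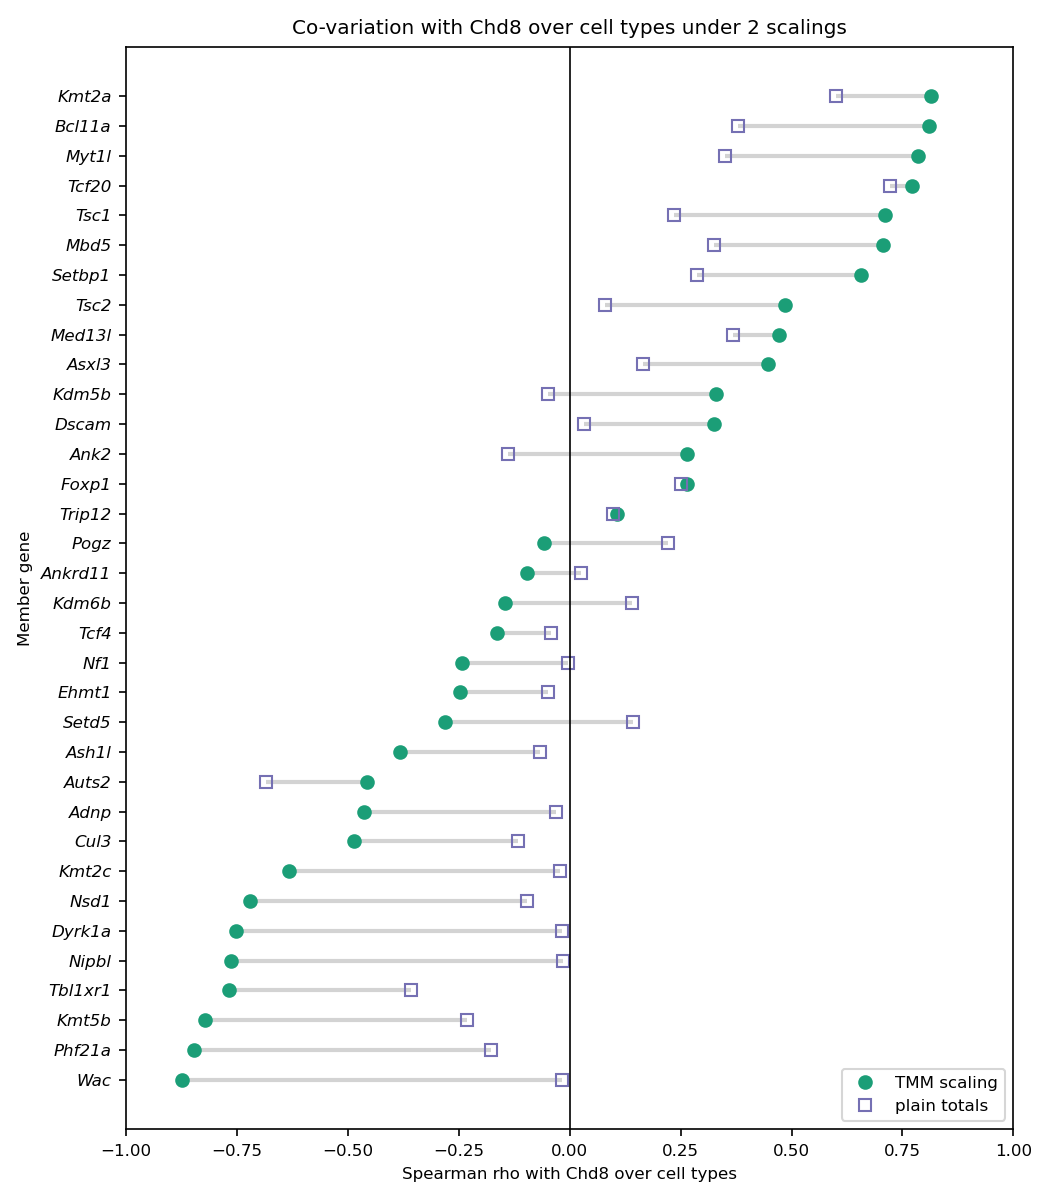
Spearman correlation coefficient of each member with Chd8 over 15 cell types, from means of 8 libraries, with 1 mark per member for levels scaled by TMM and 1 for plain library totals. With TMM the members run from -0.88 (Wac) to 0.81 (Kmt2a), and with plain totals most lie nearer to 0.

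Between the genotypes, no member passed in any cell type. Of 537 tests of a member in the 15 types or in all nuclei together, 0 had an adjusted p under 0.05 in edgeR's quasi-likelihood test with BH, in a model of sex and genotype (all genes 0.0% of 178777 tests), and the smallest adjusted p was 0.999. At an unadjusted p under 0.05 there were 6 tests (all genes 2.29%). DESeq2 called 0 as well (all genes 0.00727%), with 4 at an unadjusted p under 0.05 (all genes 1.14%). With a block for each pair of WT and Chd8het libraries (same sex, same replicate number), 0 were called (all genes 0.0263%), the smallest adjusted p was 0.325, and 30 tests were under 0.05 unadjusted (all genes 6.01%). With index type as a term, 33 were (all genes 5.56%), and 0 were called (all genes 0.0218%). Without WT male 1 the main count was 13 and without Chd8het female 1 it was 3. In the main model the p-values measure the spread between libraries, each from 1 animal, and that spread includes the difference between replicates and index types. In the paired model they measure the spread of the differences within pairs. Over the 15 types, 302 of 503 member differences were on the lower side in Chd8het, against 49.9% of all genes' differences, and tests of 1 library set are not independent. Median differences over members, Chd8het minus WT, ran from -0.05 in oligodendrocytes to 0.01 in astrocytes on the log2 scale, and those of all genes from -0.01 to 0.01. The WT and Chd8het groups failed to overlap in 8 of the 537 tests (all genes 1.89%). They were Dscam in L2/3 IT and L5 ET, Auts2 and Phf21a in L6 CT, Tsc1 in Lamp5 and Tsc2 in oligodendrocytes, all lower in Chd8het, and Kmt2c and Adnp in fibroblasts, both higher.

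The 5 tests of smallest unadjusted p are given in full, on CPM scaled within the type, which differ from the levels above that were scaled over all types. Adnp in fibroblasts stood at 85.7, 72.9, 109 and 79.9 CPM in WT and at 117, 184, 190 and 131 CPM in Chd8het. The Chd8het libraries were all above the WT libraries. The log2 difference was 0.83 (SE 0.25), with an adjusted p of 0.999 (edgeR with BH) and an unadjusted p of 0.0032 in that model. It was 0.66 among libraries with a single index and 1.05 among those with a dual index, and Adnp was higher in 4 of 4 pairs. Fibroblasts held 66 to 114 nuclei per library.

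Dscam gave 3 of the 5. In L2/3 IT it stood at 535, 651, 491 and 592 CPM in WT and at 454, 448, 404 and 486 CPM in Chd8het, in the same order of libraries. In L5 ET it stood at 1165, 1314, 1140 and 1226 CPM in WT and at 1032, 1042, 946 and 1137 CPM in Chd8het. In both types all Chd8het libraries were below all WT libraries, narrowly so. The log2 differences were -0.34 (SE 0.11, adjusted p = 1.00, edgeR with BH) and -0.22 (SE 0.09, adjusted p = 0.999). Within single-indexed libraries they were -0.26 and -0.22, and within dual-indexed libraries -0.41 and -0.22. In Lamp5 Dscam stood at 295, 353, 201 and 363 CPM in WT and at 414, 509, 294 and 374 CPM in Chd8het. There the groups overlapped and the Chd8het library was higher in 4 of 4 pairs, with a log2 difference of 0.36 (SE 0.17, adjusted p = 1.00, edgeR with BH), 0.51 with a single index and 0.30 with a dual index. That difference was 0.58 without WT female 2 and 0.21 with the stricter gate. The fifth was Auts2 in L6 CT, at 814, 848, 857 and 905 CPM in WT and at 727, 753, 751 and 788 CPM in Chd8het. Its groups did not overlap, and the log2 difference was -0.18 (SE 0.07, adjusted p = 1.00, edgeR with BH), the same to 2 decimals within single-indexed libraries and -0.19 within dual-indexed ones. Whether these differences differ between cell types was not tested.

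Myt1l was examined in the paired model after its values had been seen, because it gave 6 of the tests under 0.05 there. In L2/3 IT it stood at 488, 1106, 639 and 1048 CPM in WT and 470, 839, 494 and 895 CPM in Chd8het. In L6 CT it stood at 825, 1571, 858 and 1396 CPM in WT and 747, 1154, 738 and 1150 CPM in Chd8het. Each Chd8het library was below its WT partner, while the groups overlapped because replicate 2 was far above replicate 1 in both genotypes. The paired log2 difference was -0.26 in L2/3 IT, -0.27 in L6 CT and -0.27 in L5/6 IT, and the adjusted p in L5/6 IT was 0.342 (paired edgeR with BH). Within single-indexed and dual-indexed libraries the L2/3 IT difference was -0.23 and -0.31. In the model without the block it was -0.28 with an SE of 0.32, and leaving out 1 library at a time moved it from -0.48 (without WT male 1) to -0.01 (without WT male 2). Myt1l was lower in 12 of 15 types in the paired model, and Setbp1, with 5 tests under 0.05, in 14 of 15. No test of either passed the adjustment. Both genes are named for tests under 0.05 in this same model, and the types share the same libraries. Of all 503 member differences in that model, 298 were on the lower side. The share of all genes lower in so many types is not given. The counts of types are therefore not read as further evidence of a difference. A term for sex by genotype, added after seeing the data, called 0 of the 537 tests, with 6 at an unadjusted p under 0.05 (all genes 1.35%). The sex term itself called 0 (all genes 0.0554%), with 13 at an unadjusted p under 0.05 (all genes 4.04%).

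**Figure D4:**
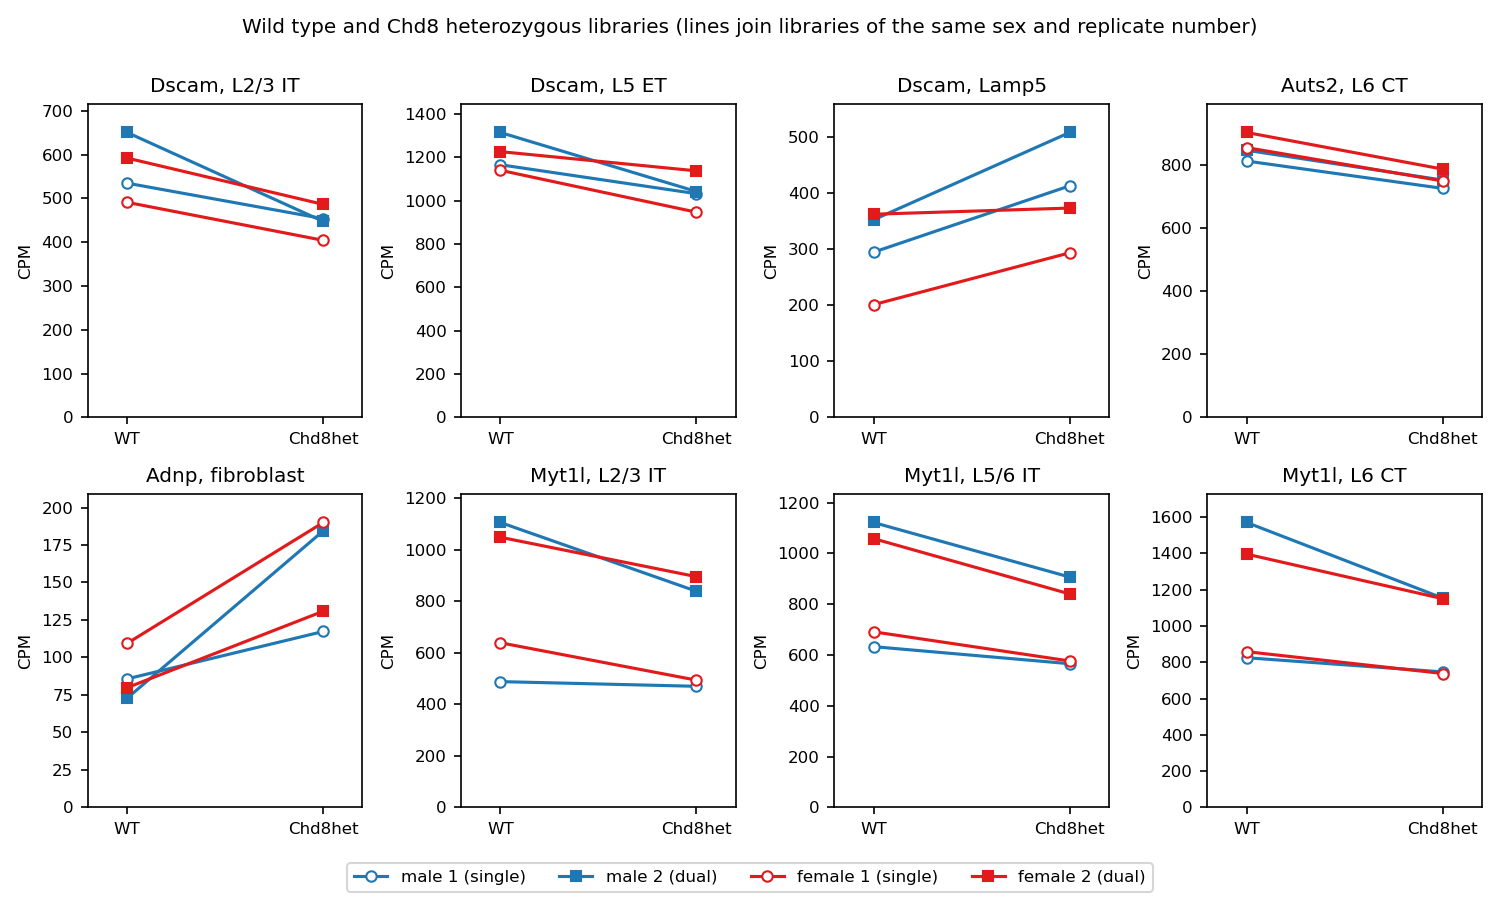
CPM scaled within the cell type for Dscam in L2/3 IT, L5 ET and Lamp5, Auts2 in L6 CT, Adnp in fibroblasts and Myt1l in L2/3 IT, L5/6 IT and L6 CT, with 1 point per library and lines joining the WT and Chd8het library of each pair. The 4 Adnp lines start at WT values of 72.9 to 109 and end higher, and the Myt1l lines slope down but lie in separate bands for replicates 1 and 2.

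Index type gave calls among the members where genotype gave none, at a share of tests near that of all genes. In the model with sex, genotype and index type, 80 of the 537 member tests differed between dual-indexed and single-indexed libraries at an adjusted p under 0.05 in edgeR with BH (14.9%, all genes 15.9%). All 80 were higher in dual-indexed libraries, and they fell in 18 members. Over all genes 8.42% of tests were called in that direction, which is 53.1% of those called. Called or not, 78.4% of the member tests were on the higher side in dual-indexed libraries, against 49.9% of all tests. How many of all genes were called in at least 1 unit (a type or all nuclei), or in as many units as the genes below, is not given. The number of members called and the counts by gene are therefore not read as a trait of the members. Myt1l differed in 12 of the 16 units, by 0.31 to 1.18 on the log2 scale, and Setbp1 in 10, by 0.25 to 0.78. Asxl3 differed in 9, by 0.67 to 2.40, and there WT female 2 and Chd8het male 2, which stood above all others, are 2 of the 4 dual-indexed libraries. In microglia, for example, Asxl3 stood at 138 and 120 CPM in these, at 39.9 and 44.9 CPM in the other dual-indexed libraries and at 12.7 to 20.6 CPM in the single-indexed ones (scaled over all types). The index difference of Asxl3 was not computed without them. Kmt2a and Tcf20 differed in 6 units each and Nf1 in 5, and over all nuclei 1 dual-indexed library, Chd8het female 2, lay within the single-indexed range for all 3 genes. For Kmt2a it stood at 151 CPM, where single-indexed libraries were at 134 to 157 CPM and the other dual-indexed ones at 183 to 244 CPM, the highest being Chd8het male 2. For Tcf20 it stood at 174 CPM (single-indexed 167 to 179, other dual-indexed 202 to 256 CPM), again with Chd8het male 2 highest. Auts2 differed in 4, most in L5/6 NP neurons, where single-indexed libraries stood at 371 to 919 CPM and dual-indexed ones at 1039 to 1740 CPM, without overlap. Myt1l in Sst interneurons was an exception, with both index types between 809 and 1075 CPM. Dual-indexed libraries were also deeper, with a mean of median UMIs per nucleus of 6983 against 5474. They also held fewer L4/5 IT nuclei (363 to 930, against 1197 to 1455 in single-indexed libraries). Index type is the same as replicate number here, so index, depth, cell make-up and any other difference between the replicates cannot be told apart. It was balanced over genotype and sex.

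**Figure D5:**
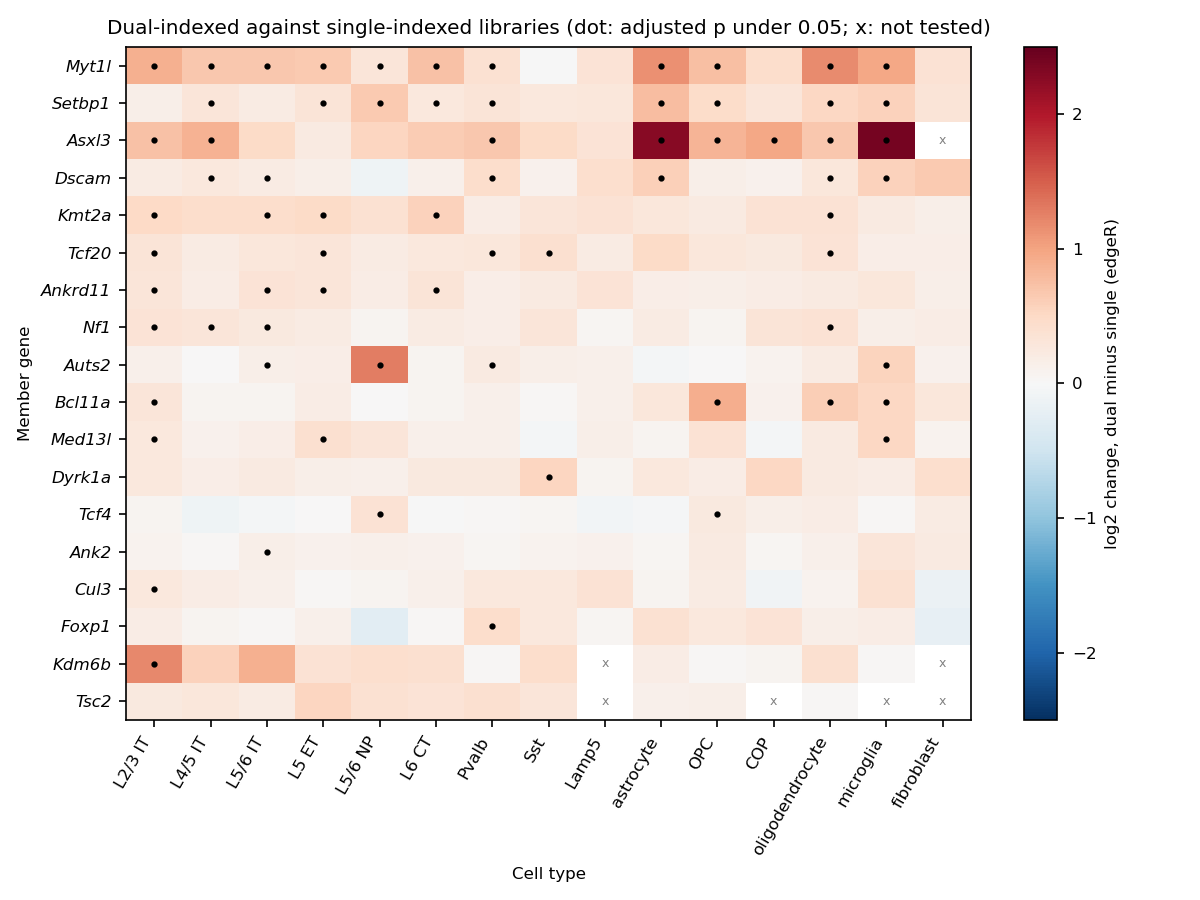
Log2 difference between dual-indexed and single-indexed libraries in the 15 cell types (columns), coloured from -2.5 to 2.5, with a dot where the adjusted p was under 0.05. Rows are the 18 members called in at least 1 type or in all nuclei, which are not drawn. All dots lie on higher values in dual-indexed libraries. Counted with all nuclei, Myt1l (12), Setbp1 (10) and Asxl3 (9) held the most calls. For Asxl3, 2 of the 4 dual-indexed libraries stand above all others.

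In the annotation (GENCODE M21 on GRCm38), the members' gene bodies ran from 15.168 kb (Kdm6b) to 1106.012 kb (Auts2). Of the 34, 27 overlap another annotated gene, 21 of them on the opposite strand, and 7 overlap none. Auts2 overlaps 26 genes, Ank2 17 and Nf1 7, and Tsc2 overlaps Pkd1. How reads in such overlaps were assigned, and whether intron reads were counted, is not given in the sources used here. Over the members, gene length and the neuronal contrast had a Spearman correlation coefficient of 0.32, beside 0.23 over 15189 genes. Genes are not independent replicates, and the scaling choice bears on that contrast as given above.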

How the data were processed

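Per the file headers, the deposited matrices hold whole-number UMI counts per gene and barcode, 1 matrix per library, and the other deposited tables list barcodes and gene names. The submitters' processing notes name STAR 2.7.9a, STARsolo, Cell Ranger and mm10. Neither strand use nor intron counting is given there. The members and gene lists were chosen with earlier results of these data known.

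Of 97772 barcodes, 82168 had at least 500 genes and at most 5% mitochondrial UMIs. Scrublet (scanpy 1.11.5) predicted 4278 doublets (5.21%), which were removed, and 77890 nuclei were kept. A nucleus took a broad class and then a type where its mean marker score, on counts scaled to equal depth, led the second class by a fixed margin. Types with at least 30 nuclei in every library were tested. Counts were summed per library and type, and tested with edgeR 4.0.16 (quasi-likelihood, TMM scaling, filterByExpr with a minimum count of 10), using DESeq2 1.42.0 as an alternative, in R 4.3.3. The edgeR fits were tested on simulated data. Standard errors were derived from the F statistic. Genes were adjusted within each type by BH. Members named in full are those called in a type, the 3 highest and 3 lowest by Spearman correlation with Chd8, and the 5 genotype tests of smallest p.

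Since the labels leave the pairing of libraries unstated, WT and Chd8het libraries sharing sex and replicate number were paired, and their deviations from the genotype means correlated in every type and pair (r 0.104 to 0.624). The replicate number is also the index type, so litter and index cannot be told apart. Alternatives were other scaling, no count filter, a stricter gate, doublets kept, an index term, a replicate block and each library left out.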

Additional observations from a re-analysis of the deposited data

Results flagged for a closer look

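Over all nuclei, 68 sets of 4 libraries were examined (34 members in each genotype), and 6 of them, all in Chd8het, held a library far from the other 3 by its gap relative to the range of the set. Chance gives about 1 in 20 such sets where the 4 libraries are alike. Each set here mixed single-indexed and dual-indexed libraries, so that rate need not hold, and the share over all genes is not given. In 4 of them Chd8het male 2 was the highest: Kmt2a stood there at 244 CPM against 147 to 157 CPM in the others, Kmt2c at 188 CPM against 158 to 163 CPM, Tcf20 at 256 CPM against 174 to 179 CPM and Nf1 at 262 CPM against 200 to 210 CPM. Chd8het male 2 also had the fewest L4/5 IT nuclei (363), and was 1 of the 2 libraries with high Asxl3. L4/5 IT nuclei numbered 363, 660, 800 and 930 in the dual-indexed libraries and 1197 to 1455 in the single-indexed ones. Levels over all nuclei carry this difference in cell make-up, and its part in them was not tested. Nsd1 was highest in Chd8het female 1 at 232 CPM, where the others stood at 226 CPM. Phf21a was lowest in Chd8het female 2 at 180 CPM, against 191 to 194 CPM in the others. What sets these libraries apart was not tested.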

How the results depend on the processing

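The count of member tests called at least 2-fold higher in a type was 27 and stayed between 26 and 30 with each library left out, in 9 to 11 members. With plain library totals it was 24, in 12 members, so some members not called with TMM were called there. With each library left out, 15 to 16 members were higher and 17 to 18 lower in neuronal types. Of 256 alternative values for named tests, 246 kept their direction and side of the threshold, 10 kept the direction but fell under the 2-fold call, and 0 reversed. Those 10 were Tcf4 in Lamp5 (7), Setbp1 in L5 ET (2) and Asxl3 in oligodendrocytes (1.00 with plain totals). The genotype tests among the 256 were far from a call in the main fit, so keeping their side says little. Their size could still move: Myt1l in L2/3 IT went from -0.28 to -0.01 without WT male 2. For all nuclei the stricter gate changes nothing by construction. The genotype comparison called 0 member tests in all 15 alternatives run. Its tests at an unadjusted p under 0.05 numbered 6, and moved to 30 with the replicate block for pairs and 33 with an index type term, while they ranged from 3 to 13 with each library left out, lowest without Chd8het female 1 (3) and highest without WT male 1 (13). The block changed no call. The median correlation with Chd8 (-0.12) reversed to 0.011 with plain totals, 0.0083 over neuronal types, 0.086 over non-neuronal types and 0.10 with the stricter gate, and ran from -0.15 to -0.01 with each library left out. The cause was not tested. Depth limits members of low counts, such as Kdm6b and Tsc2, and small types such as Lamp5 (44 nuclei in its smallest library).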
